A study of Homo sapiens with 6 samples.

Results

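Paraspeckles are bodies in the cell nucleus that assemble on the long isoform of the long noncoding RNA (lncRNA) NEAT1, and the proteins NONO, SFPQ, PSPC1 and RBM14 are among their components. The NEAT1 gene makes a short polyadenylated isoform, NEAT1_1, and a long isoform, NEAT1_2, from the same promoter. The proteins NUDT21, CPSF6 and CPSF7 make up cleavage factor Im, which binds UGUA in RNA through NUDT21. Cleavage factor Im favours the end of the short isoform, which HNRNPK counteracts. MALAT1, an abundant lncRNA of nuclear speckles, is the neighbour of NEAT1 on chromosome 11, and both MALAT1 and NEAT1_2 end without a poly(A) tail, at a cut before a tRNA-like structure.

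These 9 genes were followed in the RNA sequencing of OVCAR8, a line of human ovarian cancer cells labelled wild type, treated with DMSO (3 samples) or with 2 nM pladienolide B (3 samples), an inhibitor of the splicing factor SF3B1, for 72 h. Poly(A) RNA was selected with oligo(dT). The comparison asks how inhibition of SF3B1 changes gene expression in these cells. The genes were taken by symbol from a deposited table of 38637 genes, and all 9 were found and passed the filter on low values that kept 16178 genes. They were selected with their values in this same comparison already known, so their differences between DMSO and pladienolide B are given as a description, without a test. Levels are adjusted reads, that is, reads per gene brought to a common library size, and differences are on the scale of log2(adjusted reads + 1), pladienolide B minus DMSO, with the standard error (SE) of the limma fit over all genes.

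The samples held 22621338 to 26130882 reads on genes, and replicates correlated at 0.992 or more on the log2 scale. KRT8, KRT18, KRT7 and PAX8, markers of ovarian carcinoma, were at means of 4109 to 41458 adjusted reads in DMSO, whereas KRT19, WT1 and MUC16 were at 16.4 to 20.6 and EPCAM at 477. The 9 markers of other cell types summed to 86.2 to 115.9 adjusted reads under DMSO and 114.8 to 137.3 under pladienolide B, with CD3E at 0 in every sample, and the 3 of them that could be tested were not called. Levels are shares of the RNA sequenced, so fewer cells of a kind and less RNA per cell cannot be told apart. No label says that the samples of a group were separate cultures, so p-values measure the spread between these samples only.

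The transcript ends at which these proteins and RNA structures act are shown first, because the deposited values count whole genes and cannot show which end was used. The 3′ ends of NEAT1 and MALAT1 were read from the hg38 genome, plus strand, with the 120 bases before the end of each transcript in the GENCODE version 44 annotation or the deposited table. NEAT1_1 ended at chr11:65426394-65426513, in the 5′ part of the NEAT1 exon. NEAT1_2 ended at chr11:65445421-65445540, the end of the deposited gene. The mature MALAT1 end was at chr11:65505997-65506116, inside the deposited MALAT1 gene. Capitals mark TGTA (UGUA in RNA) and the poly(A) signal AATAAA in NEAT1_1, and the U-rich TTTCTTTT and TTTTGCTTT and the A-rich AAAAGCAAA, which pair in a triple helix that shields the end, in the other windows.
NEAT1_1 3′ end: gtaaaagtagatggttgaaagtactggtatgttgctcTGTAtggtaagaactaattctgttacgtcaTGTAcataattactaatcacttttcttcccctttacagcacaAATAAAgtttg
NEAT1_2 3′ end: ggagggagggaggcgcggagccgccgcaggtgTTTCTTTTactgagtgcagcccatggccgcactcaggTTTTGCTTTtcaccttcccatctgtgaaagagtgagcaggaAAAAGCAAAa
MALAT1 3′ end: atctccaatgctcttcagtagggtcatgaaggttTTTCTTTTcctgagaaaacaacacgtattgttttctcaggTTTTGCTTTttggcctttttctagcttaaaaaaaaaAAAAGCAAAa

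The NEAT1_1 window held 2 copies of TGTA and AATAAA 5 bases before the end. Among the last 120 bases of 57081 canonical GENCODE transcripts, searched on the transcript strand, 14.6% held at least 2 copies of TGTA and 38.6% held AATAAA. The windows of NEAT1_2 and MALAT1 shared the order and nearly the spacing of their motifs. TTTCTTTT stood 80 bases from the end in NEAT1_2 and 78 in MALAT1, TTTTGCTTT stood 42 and 37 bases from it, and AAAAGCAAA was followed by a single base in both. TTTCTTTT was found in 1.6% of the transcript ends, TTTTGCTTT in 0.298% and AAAAGCAAA in 0.447%. The last pair occurred together in 1 of the annotated ends, that of NEAT1, since the annotated end of MALAT1 lies beyond its mature end.

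A tRNA-like small RNA follows each of these ends, and it is cut off when the lncRNA is made. The small RNA after NEAT1_2 lies at chr11:65445541-65445598 and MASCRNA, which follows MALAT1, at chr11:65506117-65506174, both on the plus strand of hg38. They are shown because they mark the processing site that NEAT1_2 and MALAT1 share.
Small RNA after NEAT1_2: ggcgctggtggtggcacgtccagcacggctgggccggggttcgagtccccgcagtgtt
MASCRNA: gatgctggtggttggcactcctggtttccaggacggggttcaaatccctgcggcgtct
Both have 58 bases, and 41 of the 60 columns of their global alignment were identical. MASCRNA had 0 reads in all 6 samples, which allows up to 3 reads per sample for counting error alone. Sequencing of RNA selected with oligo(dT) is not suited to so short an RNA, so the 0 does not show its level in the cells.

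NEAT1 was the member with the largest difference. It lies at chr11:65422798-65445540 (hg38, plus strand) as a single exon of 22743 bases. Its level was 1315, 1077 and 1292 adjusted reads in DMSO replicates 1 to 3 and 4244, 4744 and 4150 in pladienolide B replicates 1 to 3. Every pladienolide B sample was far above every DMSO sample, and DMSO replicate 2 was the lowest. The mean was 3.57-fold that of DMSO, with a log2 difference of 1.84 (SE 0.07, n = 3 per group). By log2 difference NEAT1 stood 78th from the top of 16178 genes, and 26th among the 1845 lncRNA genes tested. Before adjustment, the reads on NEAT1 numbered 1068 to 1396 under DMSO and 4072 to 4445 under pladienolide B. The gene count cannot separate NEAT1_1, whose bases lie within the 5′ part of the gene, from NEAT1_2.

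MALAT1, at chr11:65497738-65506516 (hg38, plus strand), did not follow NEAT1. Its level was 6708, 5798 and 6395 adjusted reads in DMSO and 5894, 6291 and 5512 in pladienolide B. The groups overlapped, with DMSO replicate 2 below 2 of the 3 pladienolide B samples. The log2 difference was -0.09 (SE 0.06), and without DMSO replicate 2 it was -0.15. The ratio of NEAT1 reads to MALAT1 reads was 0.196, 0.186 and 0.202 in DMSO and 0.72, 0.754 and 0.753 in pladienolide B. The ratios of the groups were far apart, and those within a group lay close together.

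**Figure D1:**
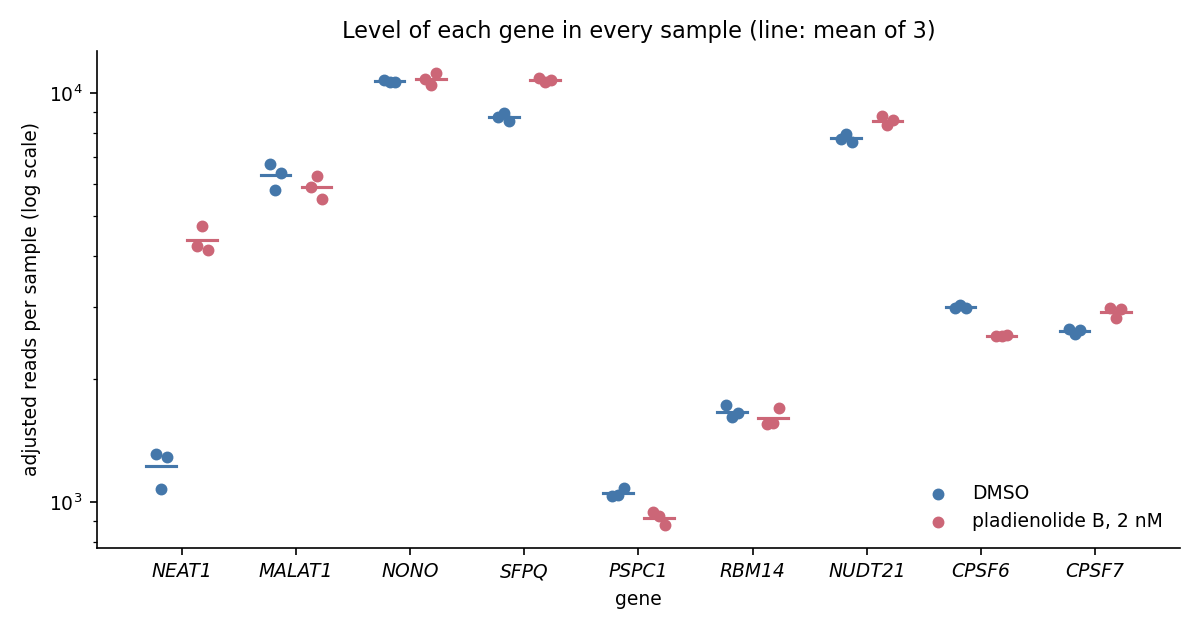
Level of the 9 genes in each sample, in adjusted reads on a log axis, with DMSO in blue, 2 nM pladienolide B in red and a line at each mean of 3 samples. NEAT1 moves from 1077 to 1315 in DMSO up to 4150 to 4744 in pladienolide B, while the points of MALAT1, NONO and RBM14 overlap between the groups.

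Among the core paraspeckle proteins, SFPQ was higher, PSPC1 was lower, and NONO and RBM14 overlapped between the groups. NONO, SFPQ and PSPC1 are the DBHS family of RNA-binding proteins, which pair with each other, and NONO and SFPQ are needed to keep NEAT1_2. NONO (chrX:71283635-71301168) was at 10776, 10658 and 10687 adjusted reads in DMSO and 10821, 10515 and 11201 in pladienolide B. Pladienolide B replicate 2 lay below all DMSO samples and the others above them, and the log2 difference was 0.02 (SE 0.04). SFPQ (chr1:35176380-35193174) was at 8740, 8958 and 8566 in DMSO and 10883, 10656 and 10791 in pladienolide B. All 3 pladienolide B samples were above all DMSO samples, and the mean was 1.23-fold that of DMSO (log2 difference 0.30, SE 0.04).

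PSPC1 (chr13:19674752-19782945) was at 1035, 1041 and 1083 adjusted reads in DMSO and 945, 926 and 878 in pladienolide B. Its groups did not overlap, and the pladienolide B mean was 87.0% of the DMSO mean (log2 difference -0.20, SE 0.06). RBM14 (chr11:66616630-66629934), a protein with prion-like domains that paraspeckle assembly needs, was at 1724, 1620 and 1653 in DMSO and 1557, 1564 and 1698 in pladienolide B. Pladienolide B replicate 3 reached into the DMSO range, and the log2 difference was -0.05 (SE 0.05). The ratio of SFPQ reads to NONO reads was 0.811, 0.841 and 0.802 in DMSO and 1.01, 1.01 and 0.963 in pladienolide B. That of PSPC1 to NONO was 0.0961, 0.0977 and 0.101 against 0.0874, 0.0881 and 0.0784. The make-up of the DBHS family in these reads thus moved toward SFPQ and away from PSPC1, with no overlap of either ratio between the groups.

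The subunits of cleavage factor Im differed in opposite directions. NUDT21 (chr16:56429133-56451332), the subunit that binds UGUA, was at 7748, 7949 and 7604 adjusted reads in DMSO and 8790, 8352 and 8607 in pladienolide B. All pladienolide B samples were above all DMSO samples (1.11-fold, log2 difference 0.14, SE 0.04). CPSF6 (chr12:69239568-69274358), the larger partner whose loss is known to shift NEAT1 toward the long isoform, was at 2985, 3028 and 2984 in DMSO and 2547, 2547 and 2569 in pladienolide B. The samples of each group lay close together and the groups apart, with a pladienolide B mean of 85.2% of DMSO (log2 difference -0.23, SE 0.04).

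CPSF7 (chr11:61402651-61429975), the alternative partner of NUDT21, was at 2648, 2573 and 2636 adjusted reads in DMSO and 2982, 2815 and 2968 in pladienolide B. It was above DMSO in all 3 samples (1.12-fold, log2 difference 0.16, SE 0.04). The ratio of CPSF6 reads to CPSF7 reads was 1.13, 1.18 and 1.13 in DMSO and 0.854, 0.905 and 0.865 in pladienolide B, with no overlap between the groups. These ratios are of reads not divided by length and are compared between samples only. NUDT21 reads over the sum of both partners were 1.38, 1.42 and 1.35 in DMSO and 1.59, 1.56 and 1.55 in pladienolide B.

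**Figure D2:**
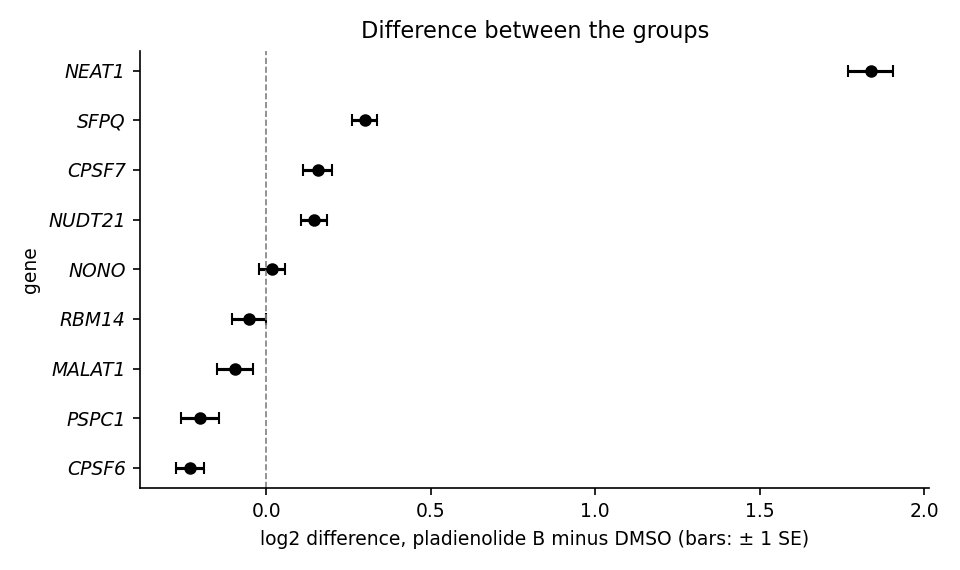
Log2 difference of each gene, pladienolide B minus DMSO, with bars of 1 SE from the limma fit. NEAT1 stands at 1.84, and the other genes lie between -0.23 (CPSF6) and 0.30 (SFPQ).

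At an adjusted p below 0.05 in limma (Benjamini-Hochberg over all genes tested), 4 of the 9 genes were called higher (NEAT1, SFPQ, NUDT21 and CPSF7), 2 lower (PSPC1 and CPSF6) and 3 neither. Of all 16178 genes tested, 47.6% were called, 22.4% as higher and 25.2% as lower. The groups did not overlap for 6 of the 9 genes and for 55.3% of all genes. Since the genes were selected on this comparison, nothing is read from these counts. NEAT1 alone among the 9 was called and differed by at least 2-fold, as did 635 of all 16178 genes tested. Without DMSO replicate 2, MALAT1 was also called, and 3 of the 9 genes were lower.

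Levels of the 9 genes were compared with each other per kilobase of exon, using the canonical GENCODE transcript for the protein genes and the deposited span for NEAT1 and MALAT1. In DMSO the order of adjusted reads per kilobase was NONO (4024 ± 23.2, SD, n = 3), SFPQ (2341 ± 52.5), NUDT21 (1768 ± 39.5), CPSF7 (751 ± 11.7), MALAT1 (718 ± 52.7), CPSF6 (456 ± 3.82), PSPC1 (433 ± 10.8), RBM14 (310.4 ± 9.91) and NEAT1 (54.0 ± 5.78). CPSF7 and MALAT1 were the neighbours in this order whose samples overlapped. In pladienolide B the order was the same, with NEAT1 still last at 193 ± 14.0. There the overlapping neighbours were CPSF6 (388 ± 1.88) and PSPC1 (376 ± 14.2), while CPSF7 (838 ± 26.5) and MALAT1 (672 ± 44.4) no longer overlapped. The NEAT1 value divides by the length of NEAT1_2 and would be higher if most reads came from NEAT1_1, which the gene count cannot show. MALAT1 and NEAT1_2 end without a poly(A) tail, and the RNA was selected with oligo(dT). Their places in this order therefore also depend on how much of each was captured, which was not measured, and do not rank their levels in the cells.

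Some genes in the table overlap members, and reads in the shared bases cannot be told apart, because nothing in the sources used here says whether counting used the strand. TALAM1, on the strand opposite MALAT1, shares 7205 bases with it and had 93.5% to 94.3% as many reads as MALAT1 in every sample (log2 difference -0.10, SE 0.06, adjusted p = 0.17 in limma). Without DMSO replicate 2, the TALAM1 log2 difference was -0.16 and TALAM1 was called lower. LOC107984338, on the strand opposite the start of NEAT1, shares 583 bases with it. It was at 61.1, 68.5 and 62.3 adjusted reads in DMSO and 214.9, 252.5 and 226.5 in pladienolide B (log2 difference 1.84, SE 0.13, adjusted p = 1e-08), or 4.66% to 6.37% of the NEAT1 reads. RBM14-RBM4, a readthrough gene on the same strand, covers all of RBM14 and had 66.4% to 73.1% as many reads (log2 difference -0.06, SE 0.06, adjusted p = 0.40). MIR612, within NEAT1, had 0 to 1 reads per sample, and MIR1279, on the strand opposite CPSF6, had 0.

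Around NEAT1 and MALAT1, within 100 kb, 17 other genes were followed, of which 13 were tested and 5 were called higher and 2 lower in limma. Of all genes tested, 47.6% were called, 22.4% as higher and 25.2% as lower, so nothing about the locus is read from these counts. LOC107984338 and TALAM1, which share bases with NEAT1 and MALAT1, are among the neighbours tested. Their differences may come from the same reads as those of NEAT1 and MALAT1 and are not separate results. Upstream of NEAT1, FRMD8, which stabilises the iRhom-ADAM17 sheddase complex, was at 687, 738 and 699 adjusted reads in DMSO and 1184, 1188 and 1198 in pladienolide B. It rose in every sample (1.68-fold, log2 difference 0.75, SE 0.06, adjusted p = 1.8e-08). DPF2, a subunit of BAF chromatin remodelling complexes, rose 1.46-fold (log2 difference 0.54, SE 0.05, adjusted p = 2.2e-07). Between NEAT1 and MALAT1, the transcribed pseudogene LOC101927789 fell from 385, 419 and 404 to 191, 181 and 220.5 adjusted reads (log2 difference -1.03, SE 0.10, adjusted p = 2.6e-07). FRMD8 and LOC101927789, on either side of NEAT1, thus moved in opposite directions.

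Beyond MALAT1, EHBP1L1 fell by 0.35 on the log2 scale (SE 0.05, adjusted p = 4.4e-05) and MAP3K11, a kinase upstream of JNK, rose by 0.24 (SE 0.04, adjusted p = 0.00029). ZNRD2 rose by 0.20 (SE 0.06, adjusted p = 0.012) and was not called without DMSO replicate 3. LTBP3, FAM89B and ZNRD2-DT, also beyond MALAT1, were not called, at log2 differences of 0.16 to 1.12 and SEs of 0.07 to 0.64, and neither were TIGD3 (0.41, SE 0.31) and SLC25A45 (0.28, SE 0.26), upstream of NEAT1. LTBP3 was called higher without pladienolide B replicate 2, and FAM89B and ZNRD2-DT without DMSO replicate 2. KCNK7 and LINC02736 were too low to be tested.

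**Figure D3:**
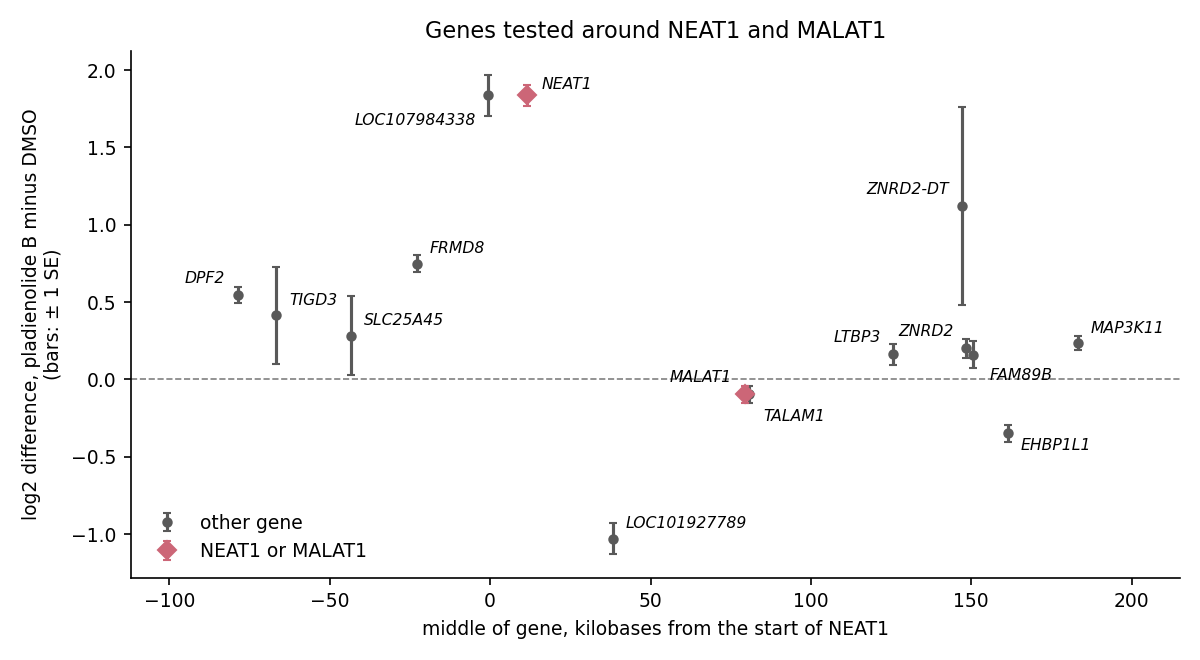
Log2 difference, pladienolide B minus DMSO, with bars of 1 SE, of the genes followed and tested within 100 kb of NEAT1 or MALAT1, by the distance of the middle of the gene from the start of NEAT1. NEAT1 and the overlapping LOC107984338 stand at 1.84, FRMD8 at 0.75 and LOC101927789 at -1.03, and MALAT1 at -0.09.

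NEAT1 was set beside the other lncRNA genes. Of the 1845 lncRNA genes tested, 27.2% were called in limma, and their median log2 difference was -0.05. Among the 56 with a mean of at least 1000 adjusted reads over the 6 samples, 20 were called higher and 14 lower, and NEAT1 had the largest rise. The next was the readthrough gene RTEL1-TNFRSF6B (log2 difference 1.18, SE 0.05, adjusted p = 3e-11), and at the other end was SNHG14 (-0.63, SE 0.04, adjusted p = 4.2e-09). Some of the 56 are readthrough genes over protein-coding genes, and their reads may be those of the coding genes. ATP6V1G2-DDX39B had means of 6520 adjusted reads in DMSO and 6230 in pladienolide B, and DDX39B had 6468 and 6169. The 56 are therefore not all a comparison of lncRNA alone.

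Of 16 other well-known lncRNA genes, 15 were tested, and 1 was called higher, 5 lower and 9 neither. That is 40% called, against 27.2% of all lncRNA genes tested and 47.6% of all genes. The median log2 difference of the list was -0.28, against -0.05 over all lncRNA genes tested and 0.00 (-0.00422) over all genes tested. PVT1, the neighbour of MYC, rose 1.48-fold (log2 difference 0.56, SE 0.08, adjusted p = 1.4e-05). MIR22HG, the host of miR-22, fell from 718, 820.5 and 807 adjusted reads to 410, 471 and 405 (log2 difference -0.87, SE 0.08, adjusted p = 1.5e-07). CYTOR fell by 0.61 on the log2 scale (SE 0.07, adjusted p = 1.3e-06). KCNQ1OT1, the imprinted antisense RNA of KCNQ1, had a log2 difference of -0.48 (SE 0.16, adjusted p = 0.019) and was not called without DMSO replicate 1 or without pladienolide B replicate 1. Without the latter, 3 genes of this list were lower.

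**Figure D4:**
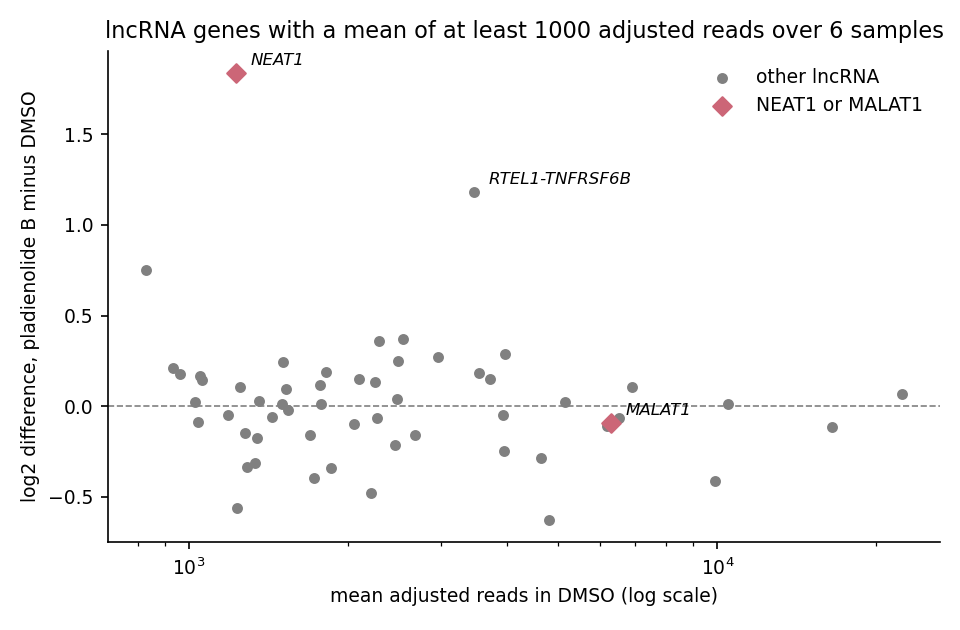
Log2 difference, pladienolide B minus DMSO, against the mean level in DMSO (log axis) for the 56 lncRNA genes with a mean of at least 1000 adjusted reads over the 6 samples. NEAT1 is the highest point at 1.84, above RTEL1-TNFRSF6B at 1.18, and MALAT1 lies near 0.

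Other proteins reported in paraspeckles changed in both directions. Of 40 such genes, 38 were tested, and 10 were called higher, 12 lower and 16 neither, that is 57.9% called against 47.6% of all genes. Their median log2 difference was -0.07. The share called can also depend on level. Of all lncRNA genes tested 27.2% were called, while of the 56 at a mean of at least 1000 adjusted reads 20 were called higher and 14 lower. No list here was matched for level to all genes tested, so its share does not show that it was affected more than other genes. EWSR1, an RNA-binding protein, was at 6929, 6818 and 6885 adjusted reads in DMSO and 8984, 8842 and 9101 in pladienolide B. All 3 pladienolide B samples were above all DMSO samples, and it rose by 0.38 (SE 0.04, adjusted p = 3.5e-07 in limma). FAM98A rose by 0.35 (SE 0.06, adjusted p = 0.00019).

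TARDBP, which encodes the RNA-binding protein TDP-43, was at 4592, 4929 and 4602 adjusted reads in DMSO and 3608, 3366 and 3384 in pladienolide B. It fell in all 3 samples, by 0.45 on the log2 scale (SE 0.05, adjusted p = 5.1e-07). The transcription factor gene TOX fell by 1.01 (SE 0.23, adjusted p = 0.0016) at no more than 60.4 adjusted reads in any sample, and FIGN by 0.65 (SE 0.08, adjusted p = 5.3e-06). HNRNPK, the protein that counteracts cleavage factor Im at NEAT1_1, was at 22100, 22096 and 21548 in DMSO and 23812, 24201 and 24408 in pladienolide B (log2 difference 0.14, SE 0.04, adjusted p = 0.0059). Reads of HNRNPK and TARDBP may be split with processed copies elsewhere in the genome, and how such reads were counted is not given in the sources used here.

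In the rest of the cleavage and polyadenylation machinery, 18 of 18 genes were tested, and 7 were called higher, 6 lower and 5 neither, or 72.2% called against 47.6% of all genes, with a median log2 difference of 0.04. CPSF1, the largest subunit of the complex that reads AAUAAA, was at 6290, 6331 and 6284 adjusted reads in DMSO and 3988, 4001 and 4269 in pladienolide B. It fell by 0.63 on the log2 scale (SE 0.04, adjusted p = 3.6e-09). The scaffold SYMPK fell by 0.47 (SE 0.05, adjusted p = 1.3e-06) and the poly(A)-binding PABPN1 by 0.22 (SE 0.04, adjusted p = 0.00049). The endonuclease CPSF3 rose by 0.42 (SE 0.05, adjusted p = 4.2e-06), the phosphatase SSU72 by 0.34 (SE 0.05, adjusted p = 5.8e-05) and WDR33, which contacts AAUAAA, by 0.33 (SE 0.04, adjusted p = 4.6e-06). Subunits of the same complex, CPSF1 on the one hand and CPSF3 and WDR33 on the other, thus changed in opposite directions.

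The genes that process or bind the tRNA-like 3′ ends of MALAT1 and NEAT1_2 were mostly higher. All 14 were tested, and 10 were called higher, 1 lower and 3 neither, with a median log2 difference of 0.28. That is 78.6% called against 47.6% of all genes, where 22.4% were called higher and 25.2% lower. The list was chosen with earlier results of these data known, so its counts are a description. The RNase P subunits RPP14 (log2 difference 0.44, SE 0.06, adjusted p = 1.7e-05), POP4 (0.38, SE 0.06, adjusted p = 8.7e-05) and RPP25 (0.37, SE 0.05, adjusted p = 2.1e-05) rose most. RNase P makes the cut that frees the tRNA-like RNA at its 5′ side. POP1, another subunit, fell by 0.32 (SE 0.06, adjusted p = 0.00034). ELAC2, which trims the 3′ side, was at 2648, 3019 and 2653 adjusted reads in DMSO and 3442, 3331 and 3434 in pladienolide B (log2 difference 0.30, SE 0.05, adjusted p = 0.00015). METTL16, which binds the MALAT1 triple helix, was at 1875, 1916 and 2010 in DMSO and 2392, 2378 and 2298 in pladienolide B (log2 difference 0.29, SE 0.05, adjusted p = 9.2e-05). For both, the groups did not overlap.

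Nuclear speckle proteins, among which MALAT1 resides, were called higher in 11, lower in 5 and neither in 9 of 25 genes, or 64% called against 47.6% of all genes, with a median log2 difference of 0.06. THRAP3 (log2 difference 0.41, adjusted p = 7.5e-07), SRSF1 (0.40, adjusted p = 2.6e-05) and SRSF5 (0.34, adjusted p = 5.7e-05) rose most. RBM39 (-0.39, adjusted p = 4.8e-07), SRSF2 (-0.35, adjusted p = 6.2e-05) and NKTR (-0.33, adjusted p = 0.0013) fell most. SRSF1, SRSF2 and SRSF5 are all SR proteins, which bind exons and promote splicing, and they moved in both directions. Of the other SRSF genes in this list, SRSF11 was called lower (log2 difference -0.15). SRSF3 (-0.03) and SRSF7 (0.09) were not called.

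The nuclear exosome, which degrades nuclear RNA, and its adaptors had 8 of 20 genes called higher, 6 lower and 6 neither, or 70% called against 47.6% of all genes, with a median log2 difference of 0.07. The core subunits EXOSC7 (log2 difference 0.47, adjusted p = 5.4e-06), EXOSC2 (0.40, adjusted p = 4.6e-06) and EXOSC4 (0.37, adjusted p = 0.00011) rose most. EXOSC5 (-0.27, adjusted p = 0.0064) and EXOSC9 (-0.23, adjusted p = 0.00085), of the same core, fell, as did the poly(A) polymerase TENT4A (-0.39, adjusted p = 2.9e-05). Without pladienolide B replicate 3, 3 genes of this list were called lower.

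**Figure D5:**
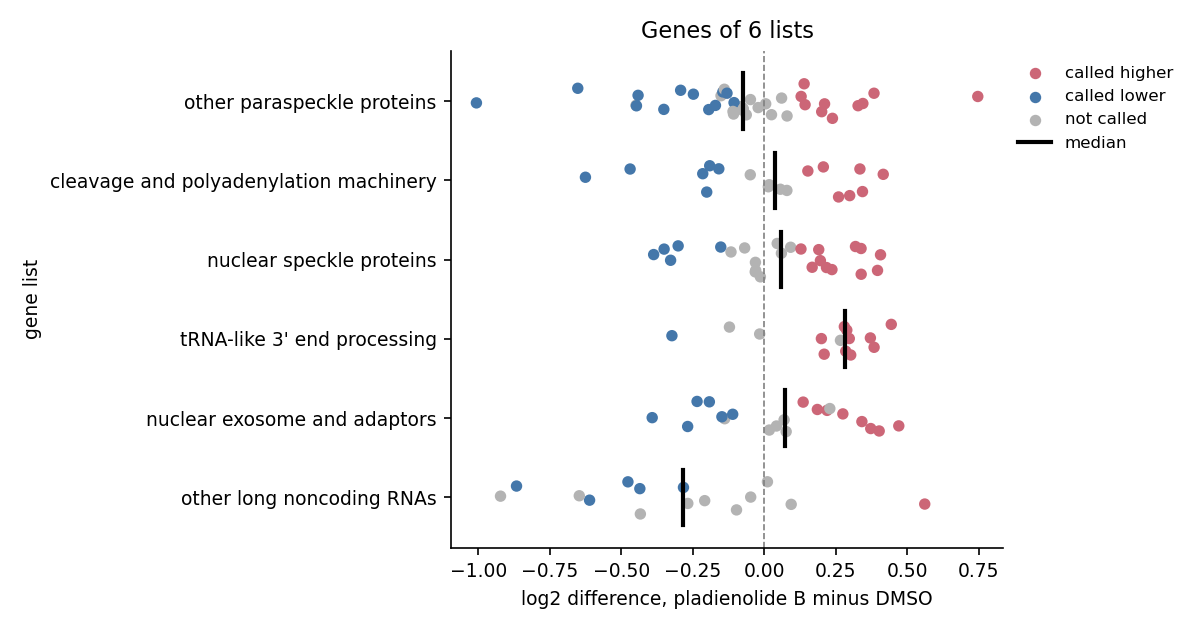
Log2 difference, pladienolide B minus DMSO, of each gene tested in 6 lists, with genes called higher in red, lower in blue, neither in grey, and a black line at each median. The tRNA-like 3′ end list has its median at 0.28 and the other lncRNA genes at -0.28, while the other 4 medians lie between -0.07 and 0.07.

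The genes whose pattern over the 6 samples was most like that of NEAT1 or MALAT1 were found among those with a mean of at least 100 adjusted reads, by the root mean square distance of log2 values, each taken from its own DMSO mean. For NEAT1 they were PSG9 (distance 0.091), the overlapping LOC107984338 (0.15), GPAT3 (0.15), TNFRSF6B (0.21) and MYPN (0.21). TNFRSF6B, a soluble decoy receptor for FAS ligand, was at 2510, 2803 and 2573 adjusted reads in DMSO and 8688, 7858 and 8806 in pladienolide B. PSG9, a pregnancy-specific glycoprotein, was at 60.3, 50.4 and 64.4 against 203, 197.5 and 200.4. For MALAT1 the nearest were the overlapping TALAM1 (0.0047), ZNF519 (0.033), QSOX1 (0.034), TEC (0.035) and LINC02381 (0.036). QSOX1, a sulfhydryl oxidase, was at 6527, 5828 and 6357 in DMSO and 5907, 5958 and 5596 in pladienolide B, with the same low DMSO replicate 2 as MALAT1. These distances describe 6 samples of 1 contrast.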

How the data were processed

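RNA of OVCAR8 cells was sequenced from 3 DMSO and 3 pladienolide B samples. The study's methods name hg38 and hisat2, while the submitters' processing notes name HISAT2, HTSeq 0.12.4, DESeq2 and hg19. Of 26990 symbols also in GENCODE version 44, 99.97% had a deposited position overlapping the hg38 one. Whether strand was used in counting is not given in the sources used here. For every gene and sample the authors deposited a signal, reads brought to a common library size. It had the form of quantile-adjusted counts of edgeR, whose inversion gave whole reads, within 0.02, for 100% of the 96432 values of at least 10. The log2 fold changes, p-values and q-values the authors deposited were not used.

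Because the values are not counts, limma 3.58.1 with a variance trend was fitted to log2(value + 1) of the 16178 genes kept by filterByExpr of edgeR 4.0.16 (minimum 10, total 15), two-sided, with Benjamini-Hochberg adjustment over all genes and a threshold of 0.05. The pseudocount understates changes of low genes. The fit was tested on simulated data. R 4.3.3 was used. Alternatives were 2 other filters, a pseudocount of 0.1, no variance trend, edgeR's quasi-likelihood test with TMM or RLE factors and DESeq2 1.42.0 on the recovered reads, the replicate number as a block, and leaving out each sample.

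The genes followed and the gene lists were chosen with earlier results of these data known. Named were these genes, the 3 largest differences called in each direction per list, HNRNPK, TARDBP, ELAC2 and METTL16, genes overlapping a member or within 100 kb of NEAT1 or MALAT1, and the 5 genes nearest in pattern to each of these. RTEL1-TNFRSF6B, SNHG14, ATP6V1G2-DDX39B, DDX39B, SRSF3, SRSF7 and SRSF11 were named after their values were seen. Sequences came from the hg38 genome. Promoters and proteins were not used here. Some genes that this rule names are not reported here and are left out of the counts of neighbouring genes.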

Additional observations from a re-analysis of the deposited data

How the results depend on the processing

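The number of genes called in the whole table was 7695 and lay between 6381 (limma without the variance trend) and 7855 (without DMSO replicate 2). No called difference changed direction, and NONO, not called, ranged from -0.01 to 0.04. Over the 14 alternatives the log2 difference of NEAT1 was 1.75 to 1.89, that of MALAT1 -0.15 to -0.05 and that of CPSF6 -0.24 to -0.22, the last at -0.22 with RLE factors and with DESeq2. Without the variance trend, 3 of the 9 genes were called higher, the nuclear speckle list had 7 genes higher and 3 lower, and the nuclear exosome list had 3 lower, and NKTR and KCNQ1OT1 were not called. When each sample was left out in turn, the nuclear exosome list had 3 to 5 genes lower and the other lncRNA list 3 to 6. The list of other paraspeckle proteins had 7 genes higher and 9 lower without the variance trend. It had 8 to 13 lower when each sample was left out. LTBP3 was called higher by edgeR with either scaling. With the replicate number as a block, 7349 genes were called. The deviations of same-numbered samples correlated at -0.02, -0.02 and 0.00 (0.00261), and those of other pairs at -0.035 to 0.0485. No pairing by number was thus seen in the values, which cannot show how the samples were prepared. Low values, such as the 0.82 to 17.0 adjusted reads of ZNRD2-DT, limit what can be seen, and isoforms, strand and poly(A)-free transcripts cannot be resolved from gene counts of oligo(dT)-selected RNA.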
